A study of Mus musculus with 32 samples.

Results

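Integrins are receptors, each made of 1 alpha and 1 beta subunit, that hold cells to the extracellular matrix and pass force and signals across the membrane. Laminins are matrix proteins, each built of an alpha, a beta and a gamma chain, and form the basement membrane around every heart muscle cell, capillary and smooth muscle cell. In the heart muscle cell, integrins sit at the costamere and the intercalated disc, where they join the contractile apparatus to laminin outside the cell. The genes described here are the integrin alpha and beta subunits and the laminin chains, taken by gene symbol (names that start with Itga, Itgb, Lama, Lamb or Lamc). The leukocyte subunits Itgam and Itgb2 and the integrin-like Itgbl1 were left out. Of 18193 genes with a probe set of 1 symbol on the array, 33 met this rule, comprising 15 integrin alpha subunits, 8 integrin beta subunits and 10 laminin chains. Where a gene had several probe sets, the one brightest on average over the 32 arrays was used. A level filter, the median of all probe sets that are not controls (a signal of 106), left 23 of the 33 genes for testing, among 11014 genes in all. These 23 were 11 alpha subunits, 4 beta subunits and 8 laminin chains. Itga11 and Itgad were not analysed here.

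The data are Affymetrix expression arrays of the cardiac left ventricle of 32 individual C57Bl6 mice, 4 in each of 8 groups. The groups cross sex, genotype (wildtype, or labelled estrogen receptor beta knockout, the receptor being encoded by Esr2) and surgery. Surgery was transverse aortic constriction (TAC), a band on the aorta that makes the left ventricle pump against a raised pressure, or a sham operation. All mice are labelled as 10 weeks old, and a duration of TAC, 9 weeks, is stated for the mice labelled knockout. The 8 groups were therefore wildtype female sham, wildtype female TAC, wildtype male sham, wildtype male TAC and the same 4 with the knockout label. The labels name no promoter, Cre line or tissue for the knockout. Below, signal is the linear MAS5 intensity, changes are differences of log2(signal + 32), and a stratum is 1 sex of 1 genotype. Each stratum's comparison uses its own sham mice, while the mean over the 4 strata is built from these same comparisons and is not independent of them.

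The Esr2 probe set did not check the genotype label in the direction a loss would give. Its signal was 3.6 to 67.7 (median 13) in the 16 mice labelled wildtype and 25.8 to 196.8 (median 107.8) in the 16 labelled knockout. It was thus higher in the latter, and the position of its probes with respect to the disruption is not known here, so it neither checks nor refutes the label. Genotype is used as labelled throughout. Array medians ran from a signal of 101.5 to 127.7, and the correlation of arrays within a group from 0.914 to 0.988. In the mean of the 4 strata, 23.5% of the 11014 tested genes were called higher with TAC and 17.8% lower. Beside that background, 18 of 24 tested macrophage and dendritic cell marker genes and 12 of 19 fibroblast marker genes rose, and none fell. The 16 TAC arrays had a summed fibroblast marker signal of 105570 to 204610 (median 151620), against 86498 to 123700 (median 99666) in the 16 sham arrays. The summed macrophage signal was 40120 to 91521 (median 52182) after TAC and 32407 to 55262 (median 38197) after sham. Of 20 endothelial genes 10 rose and 3 fell, of 16 pericyte and smooth muscle genes 6 rose and 7 fell, and of 15 cardiomyocyte genes none rose and 4 fell. The summed cardiomyocyte signal was 441940 to 942760 after TAC (median 490620) and 499540 to 664710 after sham (median 578820). The value of 942760 came from TAC replicate 1 of the wildtype females, and the next highest TAC array read 589420. Of the smaller lists, 1 of 5 platelet genes, 2 of 6 mesothelial and epithelial genes and 0 of 2 lymphocyte genes rose and none fell, 2 of 4 Schwann cell genes rose and 1 fell, and 3 of 9 atrial myocyte genes rose and 2 fell. No marker list was tested against the 23.5% and 17.8% of all genes, and counts near those shares are no result about a cell type. In whole tissue, fewer cells of a type and less RNA per cell cannot be told apart. The part such marker changes play in the changes of the integrin and laminin genes was not tested.

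Across the 4 strata, 8 of the 23 tested integrin and laminin genes rose with TAC and 2 fell, and 13 did not pass the test. The fibronectin receptor subunit Itga5, the vitronectin receptor subunit Itgb5, the tenascin receptor subunit Itga9 and the TGF-beta activating subunit Itgb8 rose by 1.53-fold to 1.78-fold. Of these, Itgb8 passed the level filter only through its TAC mice. Of the laminin chains of muscle, Lama2, Lamb1 and Lamc1, and of the laminin receptor subunits, Itga6, each rose by 1.13-fold to 1.25-fold. Lamb2, the beta chain of the mature muscle laminin, and the laminin receptor subunits Itga3 and Itga7 did not pass the test. The epithelial subunits Itgb6 and Lamb3 fell, to 0.679 and 0.575 of the sham level. Itgb1, the partner of most alpha subunits in heart muscle, did not pass the test, with a log2 change of -0.16 ± 0.11 (SE). The test was limma's moderated test over the 8 group means, two-sided, with Benjamini-Hochberg adjustment over 11014 genes and a threshold of 0.05. By class, 3 of 11 alpha subunits rose and 0 fell, 2 of 4 beta subunits rose and 1 fell, and 3 of 8 laminin chains rose and 1 fell. Among all 11014 genes, 23.5% were called higher and 17.8% lower in this comparison. The members' share called higher was 34.8%, and their median log2 change was 0.16, against 0.0165 over all genes tested. These shares describe the members and were not tested against the background.

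**Figure D1:**
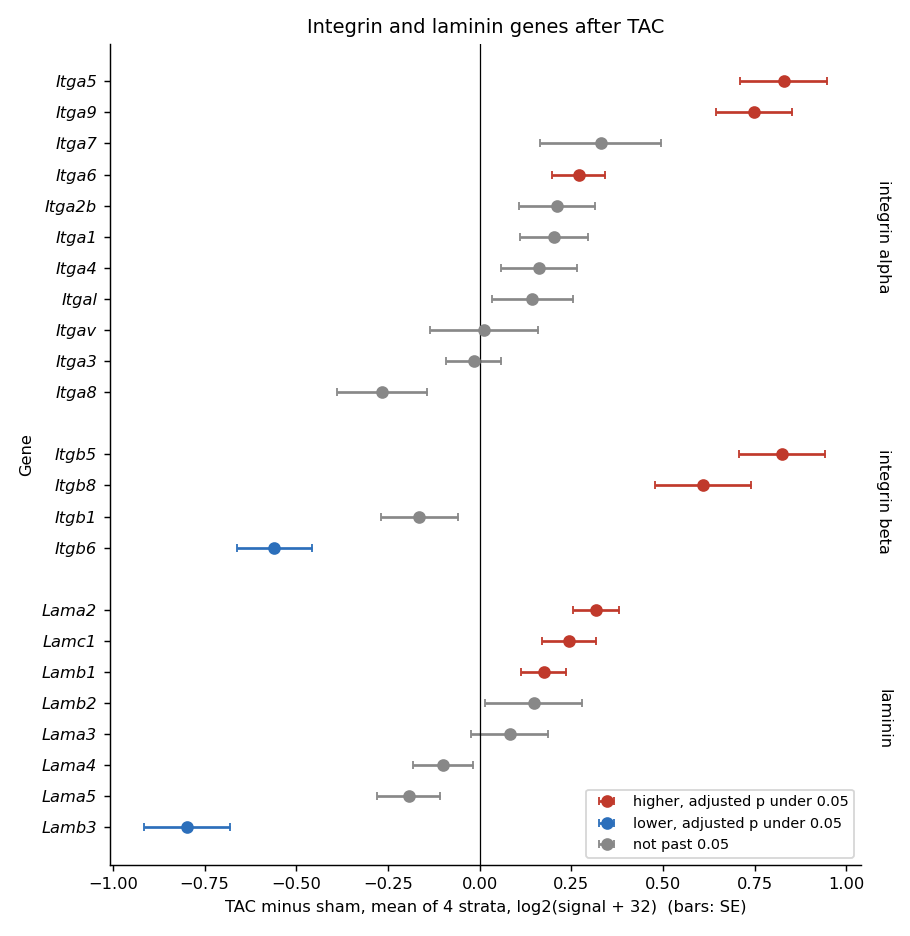
Change with TAC of the 23 tested integrin and laminin genes, as the mean of the 4 strata on the log2(signal + 32) scale (x axis), 1 point per gene (y axis) with its standard error, grouped by class. Red points passed the test as higher, blue as lower and grey did not pass; Itga5 (0.83), Itgb5 (0.82) and Itga9 (0.75) lie farthest to the right and Lamb3 (-0.80) and Itgb6 (-0.56) farthest to the left.

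The 250 bases before the start of transcription are shown for the alpha and beta subunits with the largest rise, Itga5 and Itgb5, and for Itgb6 and Lamb3, which fell. They are RefSeq sequences of build GRCm38.p6, written along the gene's own strand, with the last base next to the start. Capitals mark matches to the Sp1 box GGGCGG on either strand, where the other strand reads CCGCCC.
Itga5 (chr15:103366792-103367041, minus strand): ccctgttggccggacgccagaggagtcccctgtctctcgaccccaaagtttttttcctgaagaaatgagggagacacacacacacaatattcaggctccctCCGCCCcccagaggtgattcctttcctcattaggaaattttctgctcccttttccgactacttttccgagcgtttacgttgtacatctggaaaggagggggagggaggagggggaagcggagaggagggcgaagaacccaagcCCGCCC
Itgb5 (chr16:33829415-33829664, plus strand): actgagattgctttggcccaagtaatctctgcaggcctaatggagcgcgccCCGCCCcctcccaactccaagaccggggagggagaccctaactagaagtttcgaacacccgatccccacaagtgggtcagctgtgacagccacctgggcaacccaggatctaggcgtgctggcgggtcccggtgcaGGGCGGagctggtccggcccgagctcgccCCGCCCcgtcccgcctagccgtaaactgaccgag
Itgb6 (chr2:60722604-60722853, minus strand): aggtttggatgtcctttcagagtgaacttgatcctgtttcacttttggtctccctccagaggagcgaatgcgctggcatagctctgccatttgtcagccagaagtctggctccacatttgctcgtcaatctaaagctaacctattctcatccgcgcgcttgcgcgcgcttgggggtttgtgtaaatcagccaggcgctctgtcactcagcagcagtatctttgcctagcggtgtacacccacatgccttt
Lamb3 (chr1:193301744-193301993, plus strand): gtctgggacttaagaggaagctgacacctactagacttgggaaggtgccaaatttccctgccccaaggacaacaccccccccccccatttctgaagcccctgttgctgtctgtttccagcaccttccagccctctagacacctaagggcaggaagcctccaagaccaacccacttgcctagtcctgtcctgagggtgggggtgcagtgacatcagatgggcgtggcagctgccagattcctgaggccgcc
The Itga5 window held 2 Sp1 boxes and the Itgb5 window 3, whereas these windows of Itgb6 and Lamb3 held none. Sp1 is a general activator of GC-rich promoters. The GC content was 55.6% for Itga5, 65.2% for Itgb5, 52% for Itgb6 and 58.8% for Lamb3, against a median of 52.4% over all windows. RefSeq gave 25 such windows for 22 of the 33 genes, and 7 of these 22 genes held an Sp1 box, against 32.7% of 32851 windows of all genes. The count lies near that background and is no result about these genes. Besides Itga5 and Itgb5, the 7 were Lamb1, which rose, and Lama5, Itga3, Itga4 and Itgb1, which did not pass the test. The other motifs were searched on both strands. The AP-1 site TGANTCA was found for 1 of the 22 genes (6.75% of all windows), the TEAD site GGAATG for 3 (12.6%) and the TATA box TATAAA for 0 (12.4%). Itgb6 and Lamb3 each have a second annotated start, and the window of the second Lamb3 start held 1 TEAD match. The windows of Itga9, Itgb8 and Lama2, which also rose, held none of the 4 motifs. A match is a string of letters and says nothing of binding in these hearts.

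Itga5 encodes the alpha chain of the classical fibronectin receptor, which pairs with Itgb1. Its signal after sham was 763, 592, 679 and 567 in wildtype females, 665, 530.2, 720.2 and 541 in wildtype males, 390.2, 534.5, 469 and 428 in females labelled knockout, and 361, 228, 386 and 451 in males labelled knockout. After TAC it was 1080.1, 561, 833 and 1405 in wildtype females, 746, 1335, 969 and 918 in wildtype males, 805, 601, 978 and 579.6 in females labelled knockout, and 853, 725, 1419.6 and 1471 in males labelled knockout. Every TAC mouse lay above every sham mouse in 3 of the 4 strata, the exception being wildtype females, where 1 TAC mouse lay below all sham mice. Itga5 rose by 0.83 ± 0.12 (SE) log2, or 1.78-fold, in the mean of the strata (limma adjusted p = 2.35e-06). Both other probe sets of the gene above the filter had changes in the same direction, 0.55 and 0.52. The sham levels themselves differed by label: every sham mouse labelled wildtype read 530.2 or more, and 1 sham mouse labelled knockout did. That sham difference was -0.62 ± 0.17 log2 (knockout minus wildtype, limma adjusted p = 0.055) and did not pass the test.

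Itga9 encodes a subunit that pairs with Itgb1 and binds tenascin-C, osteopontin and the fibronectin EDA segment. Sham mice read 266, 294, 298 and 309 in wildtype females, 309, 270.3, 287 and 241 in wildtype males, 288, 255, 239 and 277 in females labelled knockout, and 155, 192, 329 and 253 in males labelled knockout. The TAC mice read 646, 384, 593 and 515 in wildtype females, 423, 718, 531 and 604 in wildtype males, 441, 347, 359 and 394 in females labelled knockout, and 461, 239, 665 and 359.8 in males labelled knockout. The groups did not overlap in wildtype females, wildtype males or females labelled knockout, while in males labelled knockout 3 TAC mice lay above all sham mice and 1 within them. The rise was 0.75 ± 0.10 log2, or 1.68-fold (adjusted p = 1.41e-06), with 0.58 for the other probe set above the filter. Itga9 was the only tested member called in 3 of the 4 strata, by 0.79 in wildtype females, by 0.94 in wildtype males and 0.77 in males labelled knockout. With the mean of the gene's probe sets the change in wildtype females was 0.21 (adjusted p = 0.637) and was not called. That call also ended without TAC replicate 1 (0.69, adjusted p = 0.137), without TAC replicate 3 (0.73, adjusted p = 0.113) and without each of the 4 sham replicates in turn.

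Itgb5 encodes the beta chain that pairs with Itgav to bind vitronectin and to release TGF-beta from its latent complex. Sham signals were 2359, 2479.9, 2515.5 and 1916 in wildtype females, 2143, 2465.5, 2441 and 1919 in wildtype males, 2983, 3229, 2191 and 1946 in females labelled knockout, and 1685.5, 1204, 2025 and 3484 in males labelled knockout. Signals after TAC were 4257, 3165, 4531 and 2774 in wildtype females, 3103, 3422, 3984 and 2689.9 in wildtype males, 4223.5, 5072, 4762 and 2713 in females labelled knockout, and 5039, 3938, 6026 and 6591 in males labelled knockout. All TAC mice exceeded all sham mice in wildtype females, wildtype males and males labelled knockout, and 3 of 4 did so in females labelled knockout. The gene rose by 0.82 ± 0.12 log2, or 1.77-fold (adjusted p = 1.95e-06), and its other probe sets gave 0.77, 0.87 and 1.03. Its partner Itgav did not pass the test, with a log2 difference of 0.01 ± 0.15 (adjusted p = 0.958), and signals of 1022 to 2955 in the 32 mice.

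Itgb8 also pairs with Itgav, and the pair activates latent TGF-beta. It read 86.5, 78, 76.9 and 95.5 in wildtype females, 72.3, 53.8, 34.2 and 51.1 in wildtype males, 94.1, 140.1, 113 and 56.2 in females labelled knockout, and 127, 186, 67.4 and 88.9 in males labelled knockout after sham. Following TAC it read 96.9, 216, 150.3 and 117 in wildtype females, 84.8, 154, 145.5 and 159 in wildtype males, 175, 169.9, 198.5 and 149 in females labelled knockout, and 165, 63.3, 141 and 214 in males labelled knockout. The groups were apart in the first 3 of these strata and overlapped in males labelled knockout, where sham mice ran from 67.4 to 186.4 and TAC mice from 63.3 to 213.9. In the mean of the strata Itgb8 rose by 0.61 ± 0.13 log2, or 1.53-fold (adjusted p = 0.000421). These signals lie close to the level filter of 106, where the added constant of 32 shrinks a fold change. The mean was 88.8 in the 16 sham mice, below that filter, and 149.9 in the 16 TAC mice. Itgb8 thus passed the filter only through its level after TAC, and its call carries that selection. In wildtype males the rise was 0.98 ± 0.26 (adjusted p = 0.0224), a call lost on leaving out TAC replicate 2, 3 or 4, or sham replicate 2, 3 or 4 (adjusted p from 0.0514 to 0.0904).

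Itgb6, whose product pairs with Itgav on epithelia, went the other way. Its sham values were 223, 253.5, 239.8 and 359 in wildtype females, 230.1, 237, 165 and 209 in wildtype males, 259, 275, 260.5 and 280.5 in females labelled knockout, and 186, 174, 287 and 287 in males labelled knockout. Its TAC values were 233, 155, 136 and 192 in wildtype females, 212.5, 212, 93.9 and 208 in wildtype males, 174, 105, 125 and 159 in females labelled knockout, and 174, 124, 123 and 105 in males labelled knockout. In females labelled knockout every TAC mouse lay below every sham mouse, and 3 TAC mice did so in wildtype females and in males labelled knockout. In wildtype males 3 TAC mice lay among the sham mice and 1, at 93.9, far below. Itgb6 fell by 0.56 on the log2 scale (SE 0.10, adjusted p = 7.15e-05), to 0.679 of sham, and its second probe set fell by 0.78. Itgb1, the beta chain of most matrix receptors of muscle, read 4332, 4089.7, 4397 and 4768 in wildtype females, 4405, 4148, 3845 and 4239 in wildtype males, 4177, 2334, 4119.8 and 3982 in females labelled knockout, and 4354, 3801, 4496 and 4370.2 in males labelled knockout in sham mice. With TAC it read 5019, 4246.5, 3558 and 3993 in wildtype females, 3838, 4525, 4397 and 4442 in wildtype males, 4261.5, 1556.5, 2897 and 3391 in females labelled knockout, and 2376.5, 3005, 4499.7 and 4208 in males labelled knockout. The groups overlapped in all 4 strata, and in females labelled knockout replicate 2 was the lowest mouse both in sham and in TAC. The difference of -0.16 ± 0.11 did not pass the test (adjusted p = 0.211), and its other probe sets above the filter gave -0.18 and -0.12.

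**Figure D2:**
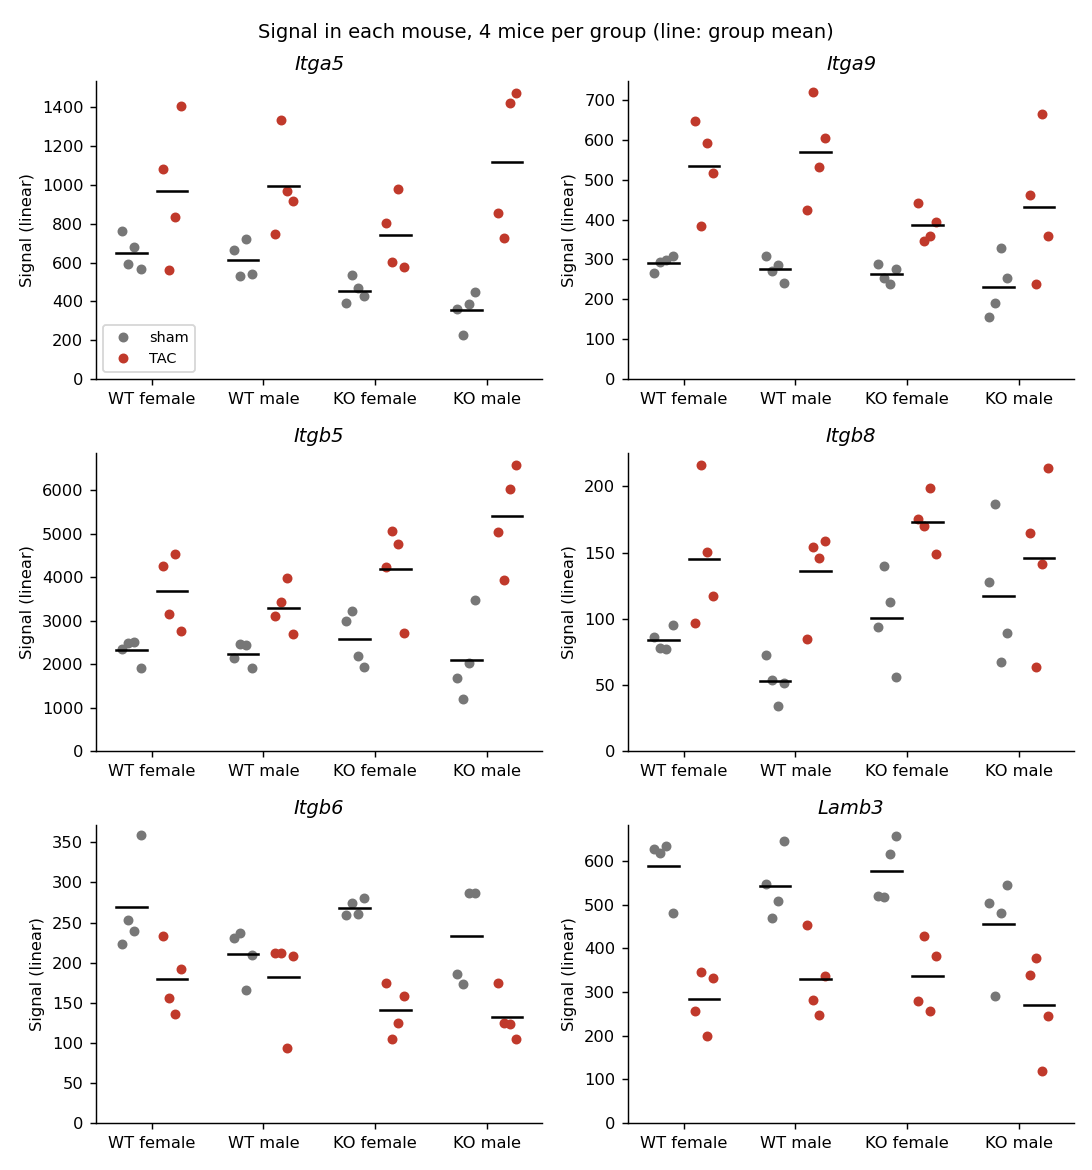
Signal of 6 genes (linear scale from 0, y axis) in every mouse of the 8 groups (x axis), grey for sham and red for TAC, with a line at each group mean of 4 mice; WT stands for mice labelled wildtype and KO for mice labelled knockout. Itga5, Itga9, Itgb5 and Itgb8 lie higher after TAC in most strata and Itgb6 and Lamb3 lower, with overlap in wildtype females for Itga5, in KO females for Itgb5, in KO males for Itga9, Itgb8, Itgb6 and Lamb3, and in both wildtype strata for Itgb6.

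The laminin receptor subunits of muscle are Itga3, Itga6 and Itga7. Itga6 read 2543.5, 2223, 2306 and 2229 in wildtype females, 2412, 2207, 2484 and 1849.6 in wildtype males, 2722, 2665, 2257 and 1718 in females labelled knockout, and 2049, 2343, 2177 and 2927 in males labelled knockout after sham. After TAC its readings were 2108.5, 2143, 2865 and 2778 in wildtype females, 3029, 3219, 2839 and 3051 in wildtype males, 2847, 2649, 3315 and 2518 in females labelled knockout, and 3374, 2320.2, 2814.5 and 3011 in males labelled knockout. Wild-type males were the stratum in which the groups did not overlap. Itga6 rose by 0.27 ± 0.07 log2, or 1.21-fold (adjusted p = 0.00347), and its second probe set gave 0.31. Itga7, the main laminin receptor subunit of mature muscle, was not called in the mean of the strata (0.33 ± 0.17, adjusted p = 0.107), and that value turned on single mice. It was 0.19 without sham replicate 2 of the males labelled knockout (adjusted p = 0.184) and 0.44, past the threshold, without sham replicate 4 (adjusted p = 0.0122). It also passed with array weights (0.37, adjusted p = 0.00647) and without the 4 arrays farthest along the first residual component (0.31, adjusted p = 0.00492), and was -0.36 with the beta-actin covariate (adjusted p = 0.545). Itga3 had a difference of -0.02 ± 0.07 (adjusted p = 0.884).

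Itga1, a collagen receptor subunit, had the smallest p among the alpha subunits that were not called. Its sham signals were 486, 423, 339 and 444 in wildtype females, 419, 386, 370.2 and 286 in wildtype males, 511, 340.5, 389.9 and 369 in females labelled knockout, and 349, 438, 325.5 and 440.5 in males labelled knockout. Its TAC signals were 492, 379.9, 476 and 475 in wildtype females, 478, 512, 400.1 and 494.5 in wildtype males, 528.5, 343, 381 and 363 in females labelled knockout, and 436, 314, 670.5 and 692 in males labelled knockout. The groups overlapped in every stratum. The difference was 0.20 ± 0.09 (adjusted p = 0.0761), and a second probe set above the filter went the opposite way, at -0.30 with an unadjusted p of 0.000684, so no direction is given for Itga1. The probe set used passed as higher without TAC replicate 2 of the males labelled knockout (0.26, adjusted p = 0.0133) or sham replicate 1 of the females labelled knockout (0.23, adjusted p = 0.0449). It was the only tested member whose probe sets disagreed in this way. Among the other alpha subunits, Itga8, a receptor for nephronectin, had -0.27 ± 0.12 (adjusted p = 0.0813), over a signal range of 118.1 to 493.8. It passed as lower without any 1 of 4 mice, TAC replicate 1 or sham replicate 4 of the males labelled knockout, TAC replicate 1 of the females labelled knockout or sham replicate 1 of the wildtype females (-0.31 to -0.33, adjusted p from 0.0165 to 0.0459). Itga4, a receptor for fibronectin and VCAM-1, had 0.16 ± 0.10 (adjusted p = 0.219), with signals of 103 to 255.2. Itga2b, the platelet subunit, had 0.21 ± 0.10 (adjusted p = 0.1), with signals of 124.6 to 469.2, and passed as higher without TAC replicate 4 of the wildtype females (0.26, adjusted p = 0.0337). Itgal, carried by leukocytes, had 0.14 ± 0.11 (adjusted p = 0.309) and signals of 68.3 to 260.2.

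Among the laminin chains the clearest change was in Lamb3, a chain of the laminin of epithelia. It read 627.5, 617, 634 and 479.9 in wildtype females, 547, 470.1, 507 and 646.5 in wildtype males, 520.4, 517, 616 and 656 in females labelled knockout, and 503.5, 291, 482 and 545 in males labelled knockout in sham mice. In TAC mice it read 257, 346.5, 198 and 332 in wildtype females, 453, 282, 247 and 337 in wildtype males, 280.1, 428, 256 and 383 in females labelled knockout, and 338, 377, 118 and 245 in males labelled knockout. All TAC mice lay below all sham mice in both wildtype strata and in females labelled knockout, and in males labelled knockout 2 of 4 did so, with 1 sham mouse at 291. Lamb3 fell by 0.80 on the log2 scale (SE 0.12, adjusted p = 3.43e-06), to 0.575 of sham. It was called in wildtype females (-0.998, adjusted p = 0.0136) and males labelled knockout (-0.76, adjusted p = 0.0153). The former call ended without TAC replicate 1 (adjusted p = 0.0612) or 3 (adjusted p = 0.0855), and the latter without TAC replicate 3 (-0.45, adjusted p = 0.105) or sham replicate 1 (-0.70, adjusted p = 0.0514). Lama3, which joins Lamb3 in that laminin, had 0.08 ± 0.11 (adjusted p = 0.557) and did not pass the test. TAC replicate 1 and sham replicate 3 of the wildtype females stood apart in atrial myocyte markers, with summed signals of 86700 and 65472 against a median of 13792 over sham and 42254 over TAC arrays.

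Lama2, Lamb1 and Lamc1 together make a laminin of the muscle basement membrane. Lama2 read 1498, 1693.5, 1893 and 1595 in wildtype females, 1237, 1591, 1695 and 1646.5 in wildtype males, 1816, 1764, 1573 and 1483 in females labelled knockout, and 1968, 1905, 1577 and 1601 in males labelled knockout after sham. It read 2216.5, 1918, 1977 and 2026 in wildtype females, 1942, 2015, 2217 and 1888 in wildtype males, 2715, 1911, 1955 and 1736 in females labelled knockout, and 2339, 1899, 2371 and 2077 in males labelled knockout after TAC. Both wildtype strata had no overlap, and 3 of 4 TAC mice lay above all sham mice in each stratum labelled knockout. The rise of Lama2 was 0.32 ± 0.06 log2, or 1.25-fold (adjusted p = 0.00019).

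Lamc1, the gamma chain shared by most laminins, read 2321, 2119.8, 2130.1 and 2275 in wildtype females, 2181, 2205, 2351 and 1775 in wildtype males, 1721, 2076, 1699 and 1471 in females labelled knockout, and 2289, 2139.9, 1846.5 and 2103 in males labelled knockout in sham mice. TAC mice gave 2719.6, 2118, 2743 and 2206 in wildtype females, 2384, 2738, 2458 and 2557 in wildtype males, 3124, 2166, 2313 and 1624 in females labelled knockout, and 2309.7, 2017.5, 2924 and 2543 in males labelled knockout. The groups overlapped except in wildtype males. Lamc1 rose by 0.24 ± 0.07 log2, or 1.18-fold (adjusted p = 0.0083), and its second probe set gave 0.27.

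Lamb1 gave 2432, 1928, 1919.8 and 1939.8 in wildtype females, 1690.0, 2045, 1683 and 1703 in wildtype males, 2313, 2641, 2023 and 2188 in females labelled knockout, and 2289.8, 2493, 2295 and 2351.5 in males labelled knockout after sham. It gave 2868, 2387, 3191 and 2476 in wildtype females, 2164, 1846, 1772 and 1687 in wildtype males, 2826, 2360.4, 2632 and 2493 in females labelled knockout, and 2698, 2031, 2897 and 2282 in males labelled knockout after TAC. The groups overlapped in every stratum, and the largest of the 4 changes, 0.40 ± 0.12 in wildtype females, had an adjusted p of 0.0636. In the mean of the strata Lamb1 rose by 0.17 ± 0.06 log2, or 1.13-fold (adjusted p = 0.0215). Its other probe sets above the filter gave 0.23 and 0.13. With the mean of the gene's probe sets the change of Lamb1 was 0.12 (adjusted p = 0.127) and was not called. The vascular chains Lama4 (-0.10 ± 0.08, adjusted p = 0.34) and Lama5 (-0.19 ± 0.09, adjusted p = 0.0697) did not pass the test, and Lamb2, the beta chain of the mature muscle and synaptic laminin, had 0.15 ± 0.13 (adjusted p = 0.392). Lama5 passed as lower in 7 of 47 alternatives, among them quantile normalization (-0.22, adjusted p = 0.0391). It did so without TAC replicate 2 of the females labelled knockout (adjusted p = 0.043), sham replicate 2 of the males labelled knockout (-0.23, adjusted p = 0.0216) or TAC replicate 1 of the wildtype males (adjusted p = 0.0492). Without sham replicates 1 and 2 of the males labelled knockout it was -0.27 (adjusted p = 0.00803). For Lama5 the groups did not overlap in wildtype females, with 1091, 1158, 1160.5 and 1242 after TAC and 1388, 1297, 1752 and 1570.5 after sham.

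A measure of RNA quality moved with TAC beside these results. The log2 difference between the 3-prime and 5-prime control probe sets of beta-actin changed by -0.31 with TAC in wildtype females, -0.41 in wildtype males, -0.41 in females labelled knockout and -0.36 in males labelled knockout. The same difference for Gapdh was higher after TAC by 0.0556 to 0.092. With the beta-actin difference as a covariate, 2 members were called higher and 3 lower. The higher were Itgb8 and Lama2, the lower Itgb6, Lamb3 and Lama5 (-0.53, adjusted p = 0.036). The share of all genes called under this covariate is not given here, so these counts are no result about the members. Under that covariate Itga5 had 0.67 ± 0.24 (adjusted p = 0.0887), Itgb5 0.71 ± 0.24 (adjusted p = 0.0655) and Itga9 0.48 ± 0.21 (adjusted p = 0.158). Itga6 had 0.39 (adjusted p = 0.095), Lamc1 0.27 (adjusted p = 0.291) and Lamb1 0.12 (adjusted p = 0.618). Without the covariate the SE was 0.12 for Itga5, 0.12 for Itgb5 and 0.10 for Itga9. Because the beta-actin difference moved with TAC in every stratum, RNA quality and surgery cannot be told apart by this covariate. With the Gapdh difference as a covariate, Itga6, Lamb1 and Lamc1 were no longer called. Itgb6, Itgb8, Lama2 and Lamb3 were called under every setting in which they were tested.

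By stratum the calls were few except in males labelled knockout. In wildtype females Itga9 rose and Lamb3 fell. In wildtype males Itga9 and Itgb8 rose. In females labelled knockout no member rose and Itgb6 fell (-0.82 ± 0.21, adjusted p = 0.0145). In males labelled knockout 6 members rose and 3 fell. The background differed in the same way, since 2.05% of all genes were called higher and 1.23% lower in wildtype females, 3.11% and 2.45% in wildtype males, 3.75% and 1.83% in females labelled knockout, and 19.6% and 12.9% in males labelled knockout. No member was called higher in all 4 strata and none lower in all 4, against 133 and 53 of the 11014 genes. The change had the same sign in all 4 strata for 14 of the 23 members. That share was not computed over all genes, so the count is no result about the members. The call of Itgb6 in females labelled knockout ended without TAC replicate 2 (-0.71, adjusted p = 0.0708) or 3 (-0.78, adjusted p = 0.0534).

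**Figure D3:**
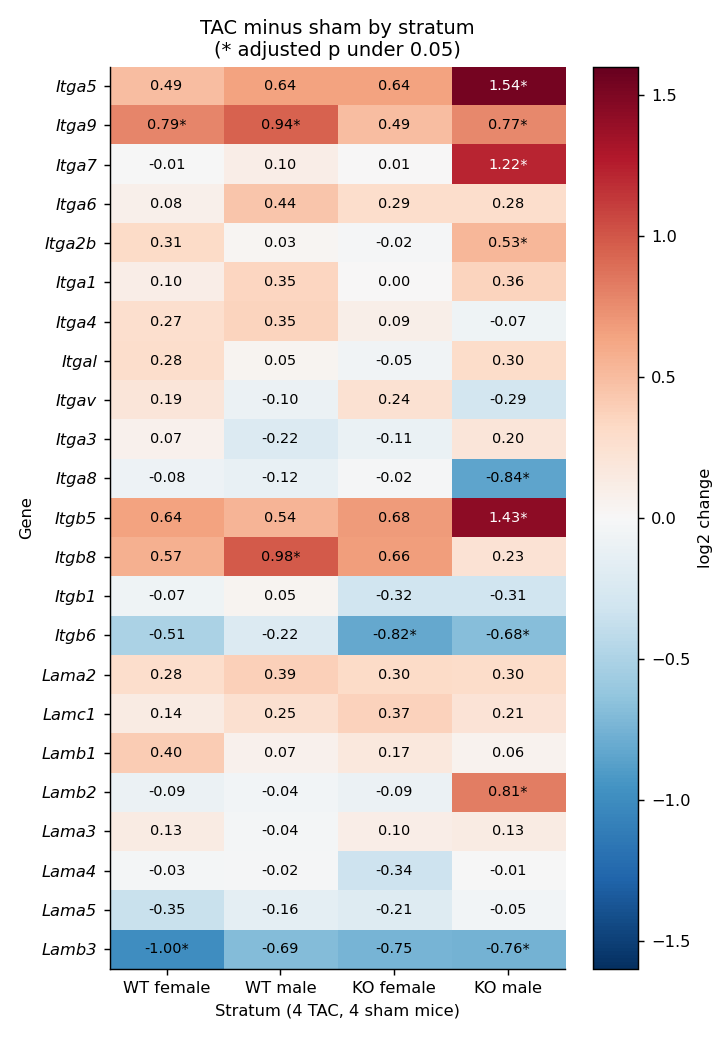
Log2 change with TAC (colour and printed value) of the 23 tested genes (y axis) in the 4 strata (x axis, 4 TAC and 4 sham mice each), with a star where the limma adjusted p was under 0.05; WT stands for mice labelled wildtype and KO for mice labelled knockout. Stars are most frequent in KO males, where Itga5 (1.54), Itgb5 (1.43), Itga7 (1.22) and Lamb2 (0.81) rose.

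In males labelled knockout Itga5 rose by 1.54 ± 0.24 log2, or 2.9-fold (adjusted p = 3.64e-05), and Itgb5 by 1.43 ± 0.23, or 2.69-fold (adjusted p = 6.45e-05). Both calls held under every alternative tried, each replicate left out included. Itga7 rose by 1.22 ± 0.33 (adjusted p = 0.00639) and Lamb2 by 0.81 ± 0.27 (adjusted p = 0.0202), while in the other 3 strata the change of Itga7 lay between -0.01 and 0.10 and that of Lamb2 between -0.09 and -0.04. Itga9 rose by 0.77 (adjusted p = 0.00609) and Itga2b by 0.53 (adjusted p = 0.0482). Itga8 fell by 0.84 on the log2 scale (adjusted p = 0.0103), Itgb6 by 0.68 (adjusted p = 0.0122) and Lamb3 by 0.76 (adjusted p = 0.0153).

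The sham mice of this stratum were widely spread in these genes. Itga7 read 1026, 299.5, 1308 and 2455 in the sham males labelled knockout and 2294, 2253, 2692 and 2324 in the TAC males of that label, and the TAC values differed far less among themselves. Lamb2 read 1360.1, 841, 2481 and 3700.0 after sham and 3651, 3039.9, 2761 and 3424 after TAC. Sham replicate 2 was the lowest and replicate 4 the highest for both. Itgav ran in the opposite order, at 2502, 2911, 1699.8 and 1077 after sham and 1379, 1182, 2039 and 1783.5 after TAC. Without sham replicate 2 the change of Itga7 was 0.67 (adjusted p = 0.053) and that of Lamb2 0.46 (adjusted p = 0.17), neither of which passed. Without sham replicates 1 and 2 it was 0.40 for Itga7 (adjusted p = 0.385) and 0.08 for Lamb2 (adjusted p = 0.874), and 4 members were called in place of 9. Those 2 mice were chosen for leaving out after their values were seen. Lamb2 also lost its call without sham replicate 1 (0.68, adjusted p = 0.0855), TAC replicate 1 (0.75, adjusted p = 0.0544) or TAC replicate 4 (0.78, adjusted p = 0.0511). Itga8 lost its call without sham replicate 1 (-0.72, adjusted p = 0.0509) or 2 (-0.70, adjusted p = 0.0578). Itga2b, whose adjusted p was just under the threshold, lost it in most alternatives, among them each of sham replicates 1 and 4 and TAC replicates 1 and 2 left out. Without sham replicate 1 alone, 5 members were called. Fitted on the 8 males labelled knockout alone, 2 members, Itga5 and Itgb5, were called. The shares of all genes called in these reduced fits are not given here. The lower counts are therefore no result about the members.

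**Figure D4:**
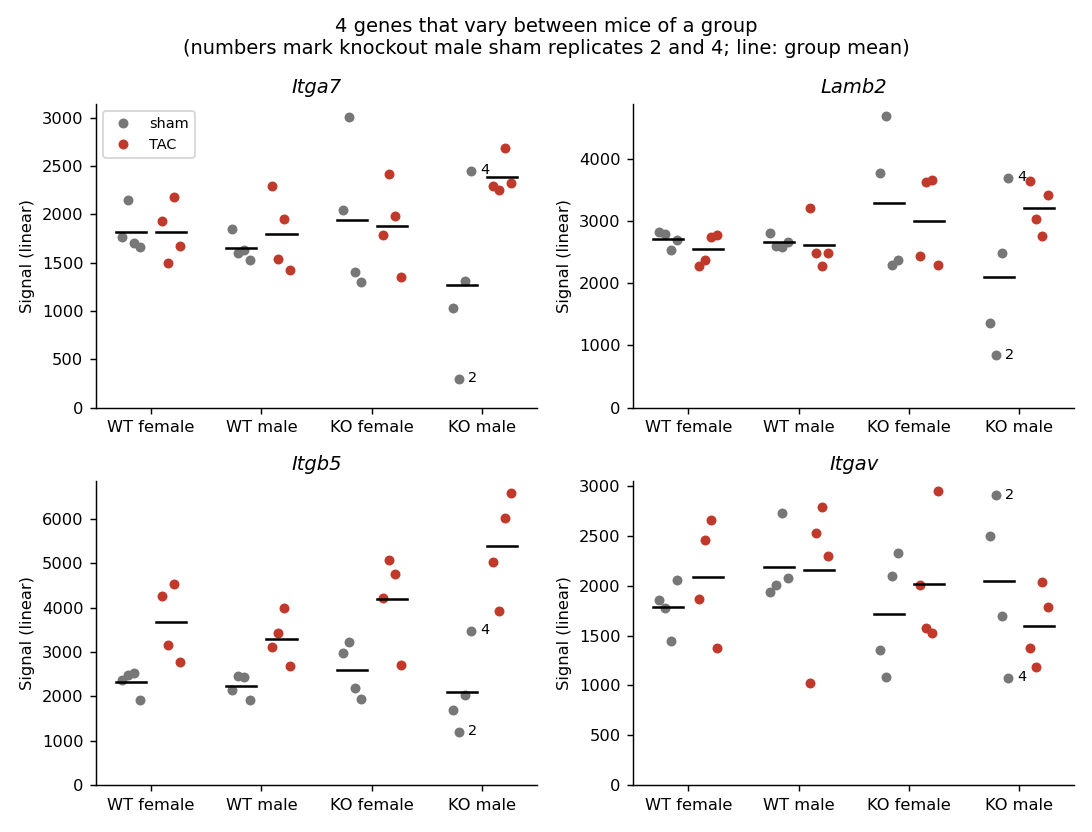
Signal of Itga7, Lamb2, Itgb5 and Itgav (linear scale from 0, y axis) in every mouse of the 8 groups (x axis), grey for sham and red for TAC, with a line at each group mean of 4 mice; WT stands for mice labelled wildtype and KO for mice labelled knockout. In the KO male sham group replicate 2 is lowest and replicate 4 highest for Itga7, Lamb2 and Itgb5, and the order is reversed for Itgav.

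Whether the TAC change differed by sex or by label was tested directly, and no member passed. The 4 interaction contrasts called 0% of the 11014 genes, and at an unadjusted p under 0.05 held 198 genes for sex in wildtype mice, 803 for sex in mice labelled knockout, 314 for genotype in females and 1523 for genotype in males. Among members, 5 had an unadjusted p under 0.05 for genotype in males: the change was larger with the knockout label by 0.89 ± 0.34 for Itga5, 0.89 ± 0.33 for Itgb5, 1.12 ± 0.47 for Itga7 and 0.85 ± 0.38 for Lamb2, and differed by -0.72 for Itga8 (adjusted p from 0.302 to 0.357). The same 5 genes had one for sex in mice labelled knockout, with female minus male values of -0.89, -0.75, -1.21, -0.91 and 0.82 (adjusted p = 0.661 for each). These 2 contrasts share the males labelled knockout and are not independent. In wildtype mice for sex, and in females for genotype, 0 members had an unadjusted p under 0.05. The difference in the change of Itgb8 by genotype in males was -0.74 ± 0.37 (adjusted p = 0.366).

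Among sham mice no member differed by sex or by label after adjustment. Of all genes 0.0726% were called for sex and 1.5% for genotype. Beside Itga5 (given above), the sham differences with an unadjusted p under 0.05 between mice labelled knockout and wildtype were 0.28 ± 0.09 for Lamb1 (adjusted p = 0.091), 0.46 ± 0.18 for Itgb8 (adjusted p = 0.196) and -0.32 ± 0.15 for Lama3 (adjusted p = 0.269). For females minus males they were 0.49 ± 0.23 for Itga7 and 0.40 ± 0.19 for Lamb2 (adjusted p = 0.822 for both). For these last 2 genes the low sham males labelled knockout enter the male mean.

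Within groups the signals of some of these genes were correlated across mice, most of them along with a component that spans all genes. After each group's mean was taken away, 253 pairs of the 23 genes were correlated over the 32 mice, with p from 100000 permutations within groups and Benjamini-Hochberg adjustment over the pairs. In this family 7 pairs passed 0.05, of which 4 were positive. Itga7 and Lamb2, a laminin receptor subunit and a laminin chain, had Pearson's r = 0.888 and Spearman's rho = 0.666 (permutation p = 0.00015 and 0.00213, adjusted p = 0.00759 and 0.0599). Without the 2 farthest mice, sham replicates 2 and 4 of the males labelled knockout, r was 0.74. For Itga7 and Itgb5 r was 0.801 and rho 0.753 (adjusted permutation p = 0.00759 and 0.0126), and r was 0.692 without the same 2 mice. For Lama5 and Lamb2 r was 0.777 and rho 0.734, with r = 0.737 without 2 mice, and for Itga4 and Itgav r was 0.729 and rho 0.703, with r = 0.638. Itgav ran against Lamb2 (r = -0.756, rho = -0.745) and against Lama5 (r = -0.75, rho = -0.781), with -0.715 and -0.726 without 2 mice. Lamb3 ran against Lamc1 (r = -0.61, rho = -0.714). All of these genes were measured on the same arrays, and the first component of the differences within groups held 30.4% of their variance over all genes. The genes of 6 of these 7 pairs followed the component, with r = 0.912 for Lamb2, -0.862 for Itgav, 0.82 for Itga7, 0.733 for Lama5, 0.727 for Itgb5 and -0.608 for Itga4, against 0.278 for Lamb3 and 0.154 for Lamc1. Those pairs are therefore not shown to vary together apart from a difference between arrays that spans all genes. The mice farthest along that component were sham replicates 4 and 2 of the males labelled knockout, sham replicate 2 of the females labelled knockout and TAC replicate 1 of the wildtype males.

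The genes around the integrins and laminins were taken from 4 lists, to be read against the 23.5% of all genes called higher and 17.8% called lower in this comparison. Of 21 tested partners in the basement membrane 15 rose and 1 fell in the mean of the strata (median log2 change 0.37). The collagen IV chain Col4a2 rose by 0.93 ± 0.10, the matricellular protein Sparc by 0.92 ± 0.10 and the laminin-binding fibulin Fbln2 by 1.30 ± 0.13. Egflam, or pikachurin, which binds dystroglycan, fell by 1.12 on the log2 scale. Of 24 genes listed as integrin ligands other than laminins 17 rose and 3 fell (median 0.50). Postn, a ligand of the Itgav integrins, rose by 2.67 ± 0.27, Ccn2 by 2.31 ± 0.19, and Fn1, the ligand of Itga5, by 1.18 ± 0.20. The TGF-beta genes Tgfb2 and Tgfb3, also on that list, rose by 1.34 ± 0.15 and 1.24 ± 0.10. A place on the list does not show that a product binds an integrin, and for Tgfb2 such binding is not established. Vtn, the ligand of Itgb5, fell by 0.29 on the log2 scale (adjusted p = 0.00786).

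Of 48 integrin adaptors and focal adhesion genes 26 rose and 4 fell (median 0.24). Flnc, the muscle filamin, rose by 1.18 ± 0.10, Enah, an actin regulator at adhesions and intercalated discs, by 0.95 ± 0.07, Actn1 by 0.92 ± 0.09 and the calcium and integrin binding Cib1 by 0.77 ± 0.09. Ilk, integrin-linked kinase, rose by 0.30 ± 0.08 (adjusted p = 0.00339). Itgb1bp2, or melusin, a muscle protein that binds the tail of Itgb1, fell by 0.51 on the log2 scale (adjusted p = 0.01). Of 23 genes of the dystrophin-glycoprotein complex and other laminin receptors 4 rose and 2 fell (median 0.09), in both directions a smaller share than the 23.5% and 17.8% over all genes, so the count is no result about that list. The syndecans Sdc1 (0.47 ± 0.09), Sdc2 (0.27 ± 0.07) and Sdc3 (0.66 ± 0.13) and the linker Plec (0.47 ± 0.09) rose. Dag1, dystroglycan, the main laminin receptor beside the integrins, had 0.10 ± 0.05 (adjusted p = 0.0668). By stratum, in the order wildtype females, wildtype males, females labelled knockout and males labelled knockout, the basement membrane list had 3, 6, 5 and 12 genes higher and 1, 1, 1 and 2 lower. The other ligands had 6, 7, 7 and 15 higher and 0, 2, 0 and 2 lower. The adaptors had 3, 5, 6 and 19 higher and 0, 0, 0 and 2 lower. The dystroglycan list had 0, 0, 1 and 5 higher and 0, 0, 0 and 2 lower. The males labelled knockout, with the most calls in each list, also had the most over all genes, 19.6% higher and 12.9% lower, and the 5 and 2 of 23 in the dystroglycan list lie near or below that background. Some list members, such as Postn, also stand among the fibroblast markers, whose summed level moved with TAC as given above.

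**Figure D5:**
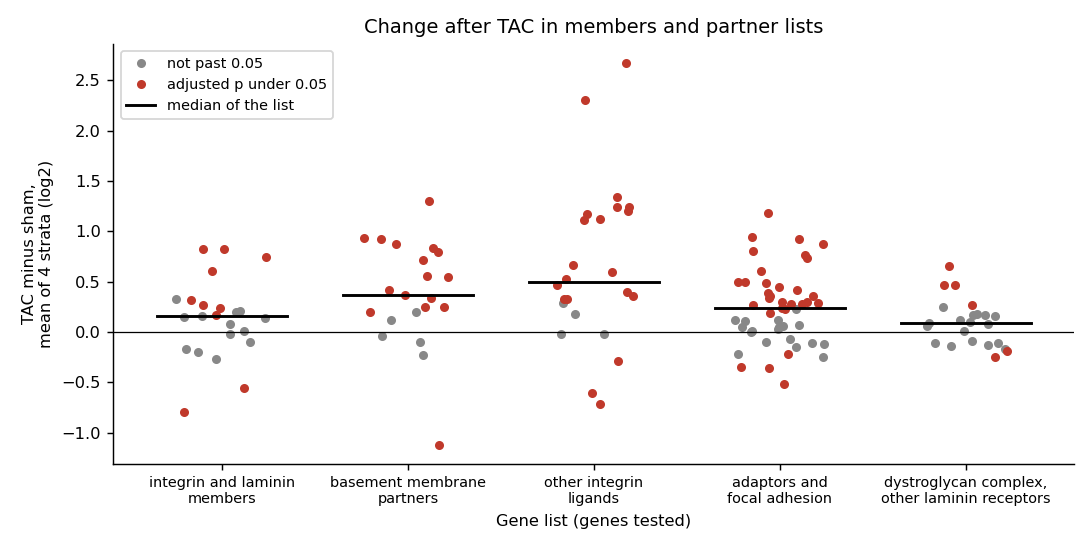
Change with TAC as the mean of the 4 strata (log2, y axis) of each tested gene in 5 lists (x axis), red where the limma adjusted p was under 0.05 and grey otherwise, with a line at each list's median. The medians are 0.16 for the integrin and laminin genes, 0.37 for basement membrane partners, 0.50 for other ligands, 0.24 for adaptors and 0.09 for the dystroglycan list.

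The other 10 genes of the family lay below the level filter and were not tested. The collagen receptor subunits read 2.5 to 96.3 (median 46.9) for Itga2 and 17.6 to 163.8 (median 94.45) for Itga10 over the 32 mice. The leukocyte subunits read 51.8 to 173.1 (median 85.85) for Itgae, 9.4 to 183.4 (median 65.9) for Itgax, 7.6 to 142.1 (median 64) for Itgb2l and 8.4 to 132.4 (median 61.05) for Itgb7. Itgb3, which pairs with Itgav or, on platelets, with Itga2b, read 3.4 to 174.9 (median 41.7). Itgb4, the hemidesmosome subunit of epithelia, read 4.9 to 100.9 (median 23.95). Among the laminins, Lama1 read 1.1 to 22.1 (median 4.75) and Lamc3 14.8 to 124.7 (median 67.35). These are levels on different probes and are not set against each other.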

How the data were processed

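Left ventricles of 32 mice were measured on Affymetrix 430 2.0 arrays, and the authors deposited MAS5 signal intensities (MAS5 5.0, per the submitters' processing notes), scaled so that the 2% trimmed mean of every array is 500. Of 45101 probe sets, 34945 have 1 gene symbol, 932 several and 9160 none. From these intensities log2(signal + 32) was fitted with limma 3.58.1 in R 4.3.3 (8 group means, eBayes with trend, 11 comparisons, Benjamini-Hochberg adjustment). The fit was also run on simulated data with independent normal errors for each gene. Such data lack the component that spans all genes in these arrays, so that run does not check the calls. The members and gene lists were chosen with earlier results of these data known. Members past 0.05 in the mean comparison were described with values, the 4 of each class with the smallest p with every mouse, and up to 4 genes per partner list plus Dag1, Itgb1bp2, Ilk, Fn1 and Vtn were named. Within-group deviations of same-numbered mice correlated above 0.1 in 7 of 16 pairs (-0.34 to 0.585). The highest values, 0.572 and 0.585, were those of replicates 2 and 4 of the females labelled knockout. These values do not settle whether the numbers mark pairs, and numbers were not used as pairs. Mice are individuals, per the labels, and the number of arrays limits precision. Alternatives covered scaling, the added constant, filters, probe set choice, the replicate block, array weights, trend, RNA quality covariates, the groups fitted and each mouse left out. All values in the deposited table were mapped to a sample.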

Additional observations from a re-analysis of the deposited data

Results flagged for a closer look

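In 6 of the 112 groups of 4 mice formed by the 14 members called in any comparison, 1 mouse lay far from the other 3 (Dixon's 95% limit), and chance gives about 1 in 20 such groups. Itga8 read 307.3 in wildtype female TAC replicate 1, with the others at 374.3 to 381.8. Itgb6 read 93.9 in wildtype male TAC replicate 3, against 208.1 to 212.5. Itgb8 read 84.8 in wildtype male TAC replicate 1, against 145.5 to 158.6. Lamb1 read 2431.9 in wildtype female sham replicate 1, against 1919.8 to 1939.8, and 2044.7 in wildtype male sham replicate 2, against 1683.2 to 1702.9. Lamb3 read 479.9 in wildtype female sham replicate 4, against 617.4 to 633.7.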

How the results depend on the processing

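The counts of called members were recomputed under 47 alternatives, 2 of them added after the data were seen; no named change reversed its direction where it was called. The reported counts were 8 higher and 2 lower in the mean comparison, 2 called in wildtype females, 2 in wildtype males, 1 in females labelled knockout and 9 in males labelled knockout, and 0 in the other comparisons. With a level filter at the 75th percentile, which tests fewer genes, 0 were lower in the mean comparison, 0 were called in wildtype females, wildtype males and females labelled knockout, 4 in males labelled knockout and 1 between sham genotypes. With array weights the calls were 4 in wildtype females, 8 in wildtype males, 7 in females labelled knockout, 7 for genotype in males and 4 between sham genotypes. With the Gapdh covariate 5 were higher in the mean comparison, and the strata had 0, 1, 0 and 4 calls, with 1 between sham genotypes. With the beta-actin covariate 2 were higher, and males labelled knockout had 4 calls. Fitted on the groups compared alone, wildtype males had 6 calls, females labelled knockout 2, males labelled knockout 2 and sham genotypes 1. Averaging the probe sets of each gene gave 1 call in wildtype females and 2 in females labelled knockout. Females labelled knockout had 2 calls with a larger added constant, and sham genotypes 1 with a constant of 1. Without the 4 arrays farthest along the first residual component, 4 were lower in the mean comparison, 4 called in wildtype males, 4 in females labelled knockout and 1 for genotype in males. Without knockout male sham replicates 1 and 2, females labelled knockout had 3 calls and males 4. The cause of these shifts was not tested. For these counts and those below, the share of all genes called under the same alternative is not given. They are therefore no result about the members.

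With the replicate number as a block the sham genotype comparison had 1 call, and the mean comparison 8 higher and 2 lower. Leaving out 1 mouse at a time gave 8 to 9 higher and 2 to 3 lower in the mean comparison, 0 to 3 calls in wildtype females, 1 to 3 in wildtype males, 0 to 4 in females labelled knockout, 5 to 10 in males labelled knockout, 0 to 3 for genotype in males and 0 to 1 between sham genotypes. The 3 calls for genotype in males came without sham replicate 4 of the males labelled knockout. The females labelled knockout had 0 calls without TAC replicate 2 or 3 and 4 without TAC replicate 4.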
